A study of Arabidopsis thaliana with 12 samples.

Results

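A set of 10 genes known from shade avoidance was followed here in red light and in a double mutant named for a phosphatase subunit pair. The bHLH and HLH regulators are PIL1 (AT2G46970), HFR1 (AT1G02340), PAR1 (AT2G42870) and PAR2 (AT3G58850). The class II homeodomain-leucine zipper (HD-ZIP II) genes are ATHB2 (AT4G16780), ATHB4 (AT2G44910), HAT1 (AT4G17460), HAT2 (AT5G47370) and HAT3 (AT3G60390). The last is the sulfotransferase gene ST2A (AT5G07010). These genes were taken by locus identifier, as a group proposed with earlier results of these data known. All 10 of the 10 were among the 33655 genes of the count table, and all 10 passed the filter on low counts that left 18487 genes for testing. The libraries came from Arabidopsis thaliana seedlings that had been kept for 4 days in darkness, following a cold period of 3 days and a white light pulse of 3 h (25 µmol m-2 s-1), at 22 °C. The groups were the double mutant b''ab''b exposed to red light (8 µmol m-2 s-1) for 1 h, the double mutant left in the dark, the wild type Col-0 exposed in the same way and Col-0 left in the dark, with 3 libraries in each. The mutant is named for lesions in a pair of genes, B''α and B''β, whose products steer protein phosphatase 2A to its substrates, and its alleles were not analysed here. No shade treatment was part of the design, so the word shade names what these genes are known for and not a condition of the samples.

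Phytochromes are light receptors that red light switches to an active form and that far-red-rich shade switches back. Active phytochrome removes the phytochrome-interacting factors (PIFs), bHLH proteins that accumulate in darkness and in shade and switch on growth genes through G-box and related sequences. Many PIF targets are themselves regulators: PIL1 and HFR1 are bHLH proteins that restrain the shade response, PAR1 and PAR2 are small HLH proteins that cannot bind DNA and hold bHLH partners inactive, and HD-ZIP II proteins are repressors of transcription that promote elongation and help shape leaf polarity.

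RNA was read as 3′ tags, short reads from near the end of each transcript, so levels are compared between groups for one gene. Sums and ratios over related genes, given below for HD-ZIP II genes and 2 paralog pairs, are in tags, not corrected for how well each transcript yields tags, and serve only to compare groups. Libraries held 2874429 to 4979055 counts. At this depth the 3 counts that a count of 0 would allow equal 0.603 to 1.04 CPM of the library total (CPM being counts scaled to library size), and this limit takes in counting error alone. Other CPM values use TMM-scaled totals of the tested genes. Whether replicates came from separate cultures is not in the labels, so the p-values speak only of the spread among these libraries, possibly a technical one. B''α, the gene named first in the genotype, ranged over 3.88 to 6.29 CPM in mutant libraries (n = 6), against 24.4 to 31.2 CPM in wild type libraries (n = 6), while B''β was too low to check the label well (3 to 9 counts per mutant library and 8 to 20 per wild type library). Mutant dark replicate 3 and wild type dark replicate 1 stood apart from the other dark libraries on the second principal component (9.92% of the variance), and results that change without them are given as such.

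The upstream sequences show which members carry elements that PIFs are known to bind, and which carry a general HD-ZIP pattern. They were read from the TAIR10.1 genome of RefSeq over 1500 bases before each annotated gene start. Both strands were searched for the G-box CACGTG, for the PIF-binding element called the PBE-box (CACATG, or CATGTG on the other strand) and for the HD-ZIP II site CAATNATTG. A match is a description of letters and not evidence of binding. The G-box was present upstream of 6 of the 10 members, against 19.5% of 27440 protein-coding nuclear genes, and the PBE-box upstream of 7 of 10, against 51.0%. PIL1 held 3 G-boxes, a number reached by 0.889% of genes, and HFR1 held 2. PAR1 and PAR2, which encode related proteins, share a layout in which a G-box is followed at close range by a PBE-box and, nearer the gene, by a cluster of PBE-boxes. The G-boxes of PIL1 and HFR1 and the shared blocks of PAR1 and PAR2 are printed 5′ to 3′ on the strand of the gene, with G-boxes and PBE-boxes in capitals. In the proximal block of PAR2 the last capital run is a pair of overlapping PBE-boxes, one on each strand.
PIL1 (chr2:19298936-19299092, minus strand): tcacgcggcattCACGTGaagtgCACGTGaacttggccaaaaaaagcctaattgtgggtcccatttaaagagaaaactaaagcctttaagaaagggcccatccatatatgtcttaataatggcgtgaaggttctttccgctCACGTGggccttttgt
HFR1 distal box (chr1:469284-469310, minus strand): cacgagggcatCACGTGaacacgcctt
HFR1 proximal box (chr1:468865-468891, minus strand): agcccacaaccCACGTGggattttgga
PAR1 distal block (chr2:17838512-17838566, minus strand): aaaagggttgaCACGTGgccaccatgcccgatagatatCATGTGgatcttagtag
PAR2 distal block (chr3:21761376-21761431, minus strand): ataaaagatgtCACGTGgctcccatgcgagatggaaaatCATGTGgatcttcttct
PAR1 proximal block (chr2:17838334-17838404, minus strand): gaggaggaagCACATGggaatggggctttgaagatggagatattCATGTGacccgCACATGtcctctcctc
PAR2 proximal block (chr3:21761104-21761176, minus strand): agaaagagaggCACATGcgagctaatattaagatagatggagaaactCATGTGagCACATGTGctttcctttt

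The HD-ZIP pattern was searched because HD-ZIP II proteins are known to act on genes of their own family. With any middle base it was present upstream of 3 of the 5 HD-ZIP II members and of none of the other members, against 4.88% of all genes. In the stretches from ATHB2, HAT1 and HAT2 the capitals mark this pattern. The middle base is A in ATHB2, G in HAT1 and T in HAT2, and which class binds there was not tested.
ATHB2 (chr4:9448624-9448658, plus strand): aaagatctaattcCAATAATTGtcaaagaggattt
HAT1 (chr4:9738767-9738801, plus strand): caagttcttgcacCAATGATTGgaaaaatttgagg
HAT2 (chr5:19219327-19219361, minus strand): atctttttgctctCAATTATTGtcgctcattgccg

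ATHB4 held none of the 3 motifs in this window, ATHB2 held no G-box and no PBE-box, and HAT3 and ST2A held a single PBE-box each. No other annotated gene overlapped any of the 10 gene bodies. The printed PAR1 blocks overlap the annotated noncoding gene AT2G09405.

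**Figure D1:**
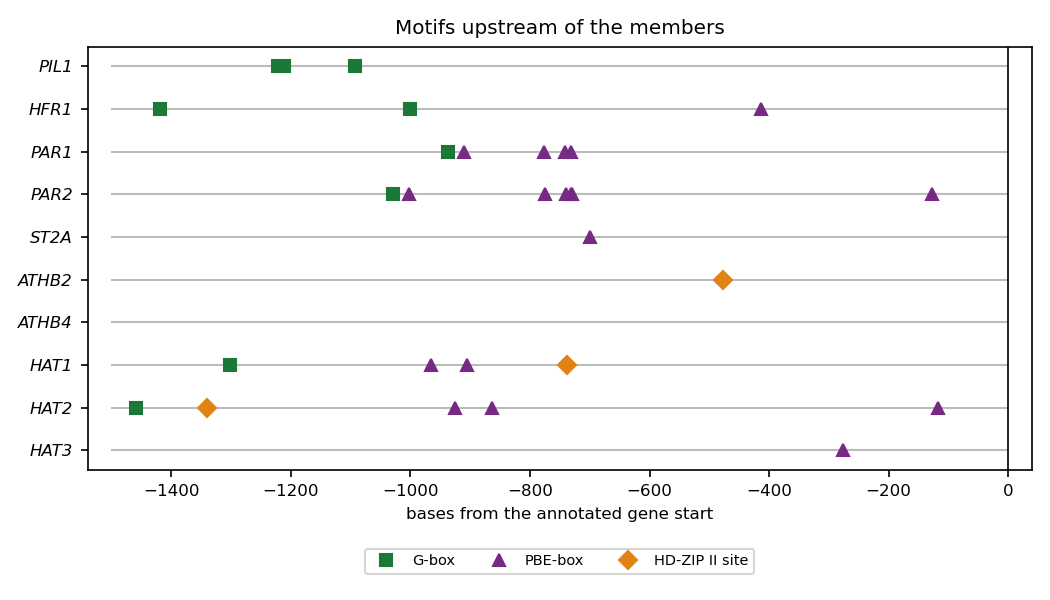
Positions of G-boxes (squares), PBE-boxes (triangles) and the HD-ZIP pattern CAATNATTG (diamonds, labelled HD-ZIP II site) upstream of the 10 genes, in bases from the annotated gene start at 0. PAR1 and PAR2 show a G-box with a PBE-box beside it and a PBE-box cluster downstream, PIL1 shows 3 G-boxes, and the line of ATHB4 is empty.

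The first question was how each gene responds to 1 h of red light in seedlings of either genotype. In the double mutant 6 of the 10 genes fell, 1 rose and 3 did not pass, and in the wild type 7 fell, 0 rose and 3 did not pass (edgeR quasi-likelihood test, adjusted p under 0.05 over all genes). Over all tested genes 16% were called in the mutant (10.7% rose and 5.27% fell) and 15.2% in the wild type (10.6% rose and 4.68% fell). The median log2 change of the 10 genes was −0.87 in the mutant and −1.16 in the wild type, beside −0.01 and −0.02 over all tested genes. PIL1, PAR1, ATHB2, HAT2, HAT3 and ST2A fell in both genotypes, PAR2 and HAT1 passed in neither, and all 10 had the same sign in both. The sign of HAT1 in the wild type reversed in 4 of 20 alternative analyses, and that of PAR2 in the mutant in 2 of 20. For these 2 genes the shared sign therefore says little. In RNA from seedlings of mixed cell types a fall in RNA per cell and a fall in the number of cells that express a gene cannot be told apart.

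**Figure D2:**
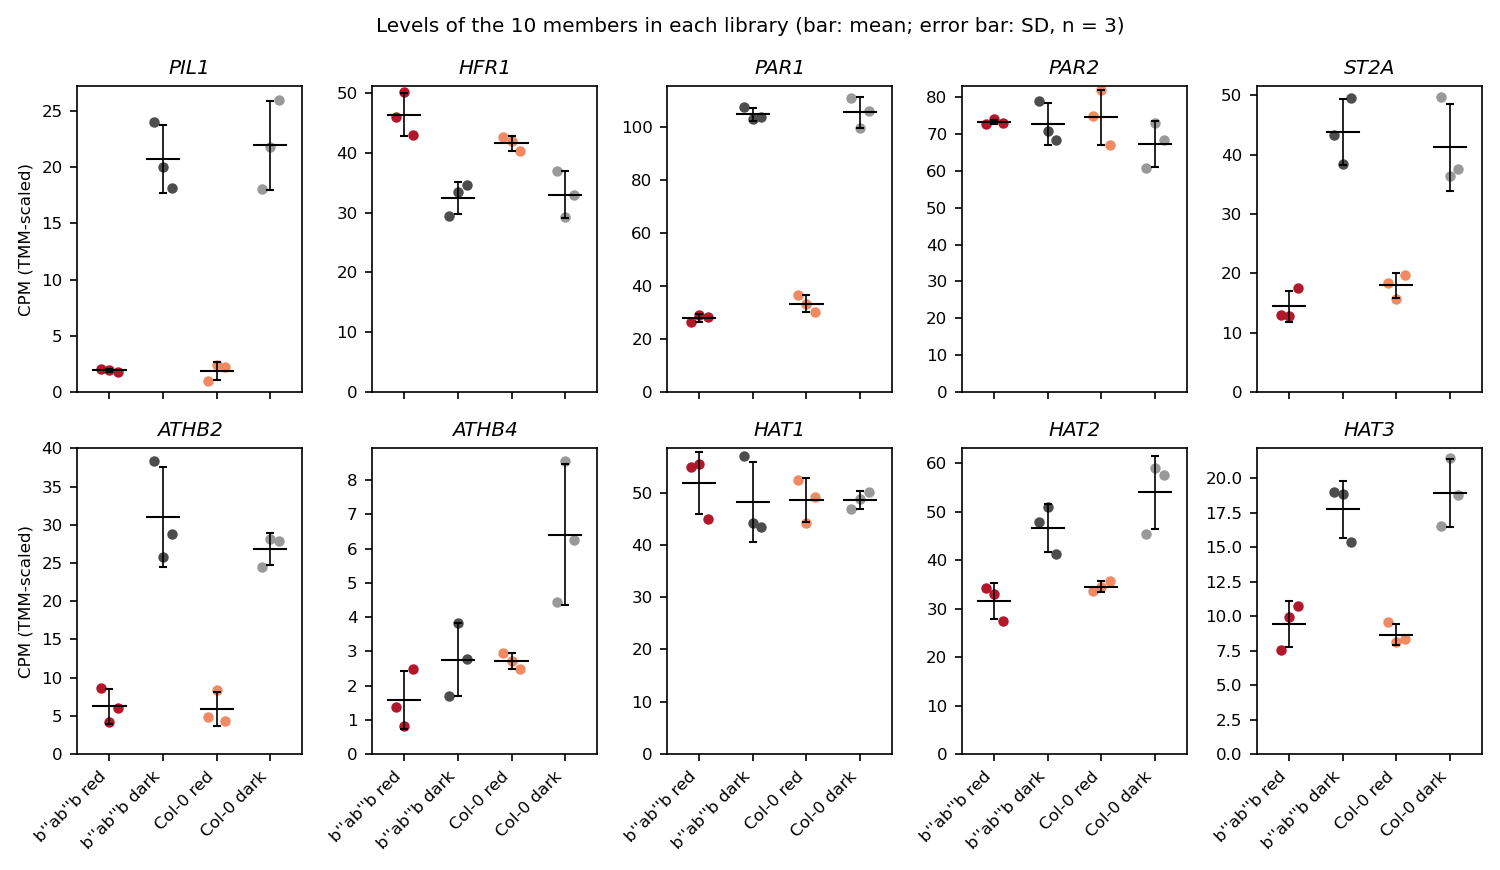
Level of each gene in CPM on TMM-scaled library sizes for every library, by genotype and light, with the mean as a bar and the SD as an error bar (n = 3). Red light libraries lie below dark libraries of the same genotype for PIL1, PAR1, ST2A, ATHB2, HAT2 and HAT3, above them for HFR1, and among them for PAR2 and HAT1.

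PIL1, on chromosome 2 from 19295431 to 19297858 with 6 exons, changed most. It stood at 2.06, 1.94 and 1.75 CPM in mutant red light libraries, against 24.1, 20.0 and 18.2 CPM in mutant dark libraries. In the wild type it stood at 0.980, 2.44 and 2.25 CPM in red light, against 18.1, 21.8 and 26.0 CPM in the dark. The red light values rest on 7 to 9 counts per mutant library and 4 to 10 per wild type library, and no red light library came near a dark one. For 6 of the 10 genes in the mutant and 7 in the wild type all red light libraries lay below all dark libraries, against 13.3% and 13.6% of all tested genes. The fall was 10.5-fold in the mutant (log2 −3.39 ± 0.26 SE, edgeR adjusted p = 6.85e-10) and 11.3-fold in the wild type (log2 −3.50 ± 0.26 SE, edgeR adjusted p = 3.73e-10). Ranked by fold, it was number 4 of the 975 genes that fell in the mutant and number 3 of the 865 that fell in the wild type.

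HFR1, on chromosome 1 from 465616 to 467880 with 5 exons, went the other way. Its levels were 46.0, 50.1 and 42.9 CPM in mutant red light libraries, against 29.5, 33.5 and 34.5 CPM in mutant dark libraries. Wild type levels were 42.6, 42.0 and 40.2 CPM in red light, against 37.0, 29.2 and 32.9 CPM in the dark. Red light and dark libraries did not overlap in either genotype, a pattern shared in this direction by 17% of all tested genes in the mutant and 16.5% in the wild type. The rise was 1.41-fold in the mutant (log2 0.50 ± 0.11 SE, edgeR adjusted p = 0.00243), and the wild type change missed the threshold (log2 0.32 ± 0.11 SE, edgeR adjusted p = 0.0612). That wild type change passed without wild type dark replicate 1 (log2 0.43, edgeR adjusted p = 0.0251) and without mutant dark replicate 3 (log2 0.33, edgeR adjusted p = 0.0470), and with both left out (log2 0.43, edgeR adjusted p = 0.0157). Over 20 alternatives the adjusted p ran from 0.0157 to 0.204.

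PAR1 and PAR2 are single-exon genes on chromosome 2 (17836416 to 17837618) and chromosome 3 (21759350 to 21760390), and their coding sequences are 77.1% identical over 353 aligned bases. PAR1 stood at 26.3, 29.1 and 28.5 CPM in mutant red light libraries, against 107, 103 and 104 CPM in mutant dark libraries. Wild type libraries held 36.5, 33.3 and 30.3 CPM in red light, against 111, 99.6 and 106 CPM in the dark. Every red light library lay far below every dark library. PAR1 fell 3.75-fold in the mutant (log2 −1.91 ± 0.10 SE, edgeR adjusted p = 4.43e-13) and 3.17-fold in the wild type (log2 −1.66 ± 0.09 SE, edgeR adjusted p = 3.02e-12).

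PAR2 did not follow its paralog. It averaged 73.2 ± 0.632 CPM in mutant red light libraries and 72.7 ± 5.60 CPM in mutant dark libraries, and 74.5 ± 7.41 CPM in wild type red light libraries and 67.3 ± 6.26 CPM in wild type dark libraries (SD, n = 3 each). All 4 groups overlapped. The log2 change was 0.02 in the mutant (95% interval −0.18 to 0.22, edgeR adjusted p = 0.936) and 0.15 in the wild type (95% interval −0.05 to 0.35, edgeR adjusted p = 0.361), so both intervals lie far from the fall of PAR1.

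The ratio of PAR1 to PAR2 counts within a library needs no scaling between libraries. It was 0.362, 0.393 and 0.390 in mutant red light libraries, against 1.36, 1.46 and 1.52 in mutant dark libraries. In wild type libraries it was 0.489, 0.407 and 0.453 in red light, against 1.83, 1.36 and 1.56 in the dark. The ratio was lower in every red light library than in any dark library. The last 500 bases of each transcript, near which tags fall, were searched against the genome. The best other match of PAR1 was in PAR2 (82.2% identical over 90 bases) and that of PAR2 was in PAR1 (78.2% over 293 bases), so a division of some reads between them is uncertain.

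**Figure D3:**
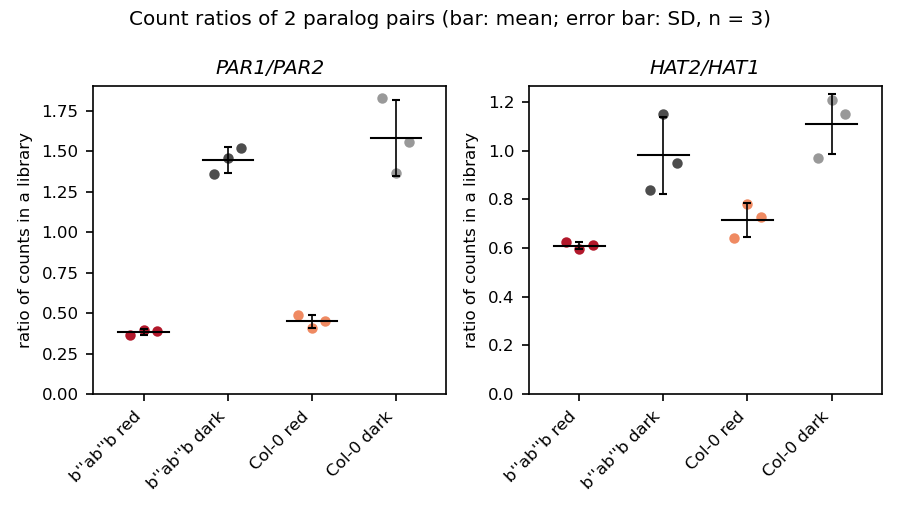
Ratio of PAR1 to PAR2 counts (left) and of HAT2 to HAT1 counts (right) in each library, with mean bars and SD error bars (n = 3). Both ratios lie lower in red light libraries than in dark libraries of the same genotype, 0.362 to 0.393 against 1.36 to 1.52 for PAR1 over PAR2 in the mutant.

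Among the HD-ZIP II genes, ATHB2, known as a promoter of elongation that rises quickly in shade, changed most. This 4-exon gene lies on chromosome 4 from 9449114 to 9450905. It stood at 8.70, 4.15 and 5.99 CPM in mutant red light libraries, against 38.3, 25.8 and 28.8 CPM in mutant dark libraries. Wild type values were 4.90, 8.40 and 4.27 CPM in red light, against 24.5, 28.1 and 27.9 CPM in the dark. The highest red light library in each genotype stayed well under the lowest dark library. ATHB2 fell 4.75-fold in the mutant (log2 −2.25 ± 0.22 SE, edgeR adjusted p = 4.83e-08) and 4.62-fold in the wild type (log2 −2.21 ± 0.23 SE, edgeR adjusted p = 1.22e-07), number 23 of 975 and number 15 of 865 falls by size.

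HAT2 and HAT3, related factors of the same class, fell less. HAT2 (chromosome 5, 19216271 to 19218007) stood at 34.3, 33.0 and 27.5 CPM in mutant red light libraries, against 47.8, 51.0 and 41.3 CPM in mutant dark libraries. Its wild type levels were 33.6, 34.4 and 35.7 CPM in red light, against 45.4, 59.0 and 57.6 CPM in the dark. Light groups did not overlap within a genotype, and the fall was 1.47-fold in the mutant (log2 −0.56 ± 0.13 SE, edgeR adjusted p = 0.00242) and 1.55-fold in the wild type (log2 −0.63 ± 0.12 SE, edgeR adjusted p = 5.86e-04). HAT3 (chromosome 3, 22320580 to 22322661) averaged 9.42 ± 1.66 CPM in mutant red light libraries and 17.8 ± 2.04 CPM in mutant dark libraries, and 8.67 ± 0.775 CPM in wild type red light libraries and 19.0 ± 2.48 CPM in wild type dark libraries (SD, n = 3 each). It fell 1.88-fold in the mutant (log2 −0.91 ± 0.18 SE, edgeR adjusted p = 7.26e-04) and 2.16-fold in the wild type (log2 −1.11 ± 0.18 SE, edgeR adjusted p = 7.60e-05), again with no overlap.

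HAT1 (chromosome 4, 9739518 to 9741234), the closest relative of HAT2 here with 77.3% identical coding bases, showed no call. Its group means were 51.8 ± 5.92 CPM in mutant red light and 48.2 ± 7.58 CPM in mutant dark libraries, and 48.6 ± 4.17 CPM in wild type red light and 48.6 ± 1.66 CPM in wild type dark libraries (SD, n = 3 each). The log2 change was 0.12 in the mutant (95% interval −0.12 to 0.36, edgeR adjusted p = 0.573) and 0.01 in the wild type (95% interval −0.23 to 0.25, edgeR adjusted p = 0.983). HAT2 over HAT1 counts came to 0.625, 0.595 and 0.611 in mutant red light libraries, against 0.839, 1.15 and 0.950 in mutant dark libraries. In the wild type the ratio was 0.640, 0.779 and 0.726 in red light, against 0.971, 1.21 and 1.15 in the dark. The ratio was lower in every red light library than in any dark library of the same genotype. Both genes carry a G-box, PBE-boxes and the HD-ZIP pattern, with a different middle base (T in HAT2 and G in HAT1).

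ATHB4 (chromosome 2, 18517656 to 18519731), known to act with HAT3 in leaf polarity, rested on few reads. Counts were 6, 3 and 10 in mutant red light libraries, against 5, 17 and 14 in mutant dark libraries. Wild type libraries held 12, 10 and 11 counts in red light, against 23, 31 and 20 in the dark. Mutant groups overlapped and wild type groups did not. In CPM this was 1.57 ± 0.849 in mutant red light and 2.76 ± 1.06 in mutant dark libraries, and 2.71 ± 0.234 in wild type red light and 6.41 ± 2.06 in wild type dark libraries (SD, n = 3 each). The fall passed in the wild type (log2 −1.21 ± 0.36 SE, edgeR adjusted p = 0.0220) and not in the mutant (log2 −0.84 ± 0.45 SE, edgeR adjusted p = 0.246), and the difference between these changes did not pass (log2 0.37, edgeR adjusted p at least 0.999962). The wild type call was lost with DESeq2 (adjusted p = 0.0822), without any single wild type red light library (edgeR adjusted p = 0.0556, 0.0621 and 0.0909) and without wild type dark replicate 2 (log2 −0.93, edgeR adjusted p = 0.138) or 3 (edgeR adjusted p = 0.0548), and over all 19 alternatives that tested it the adjusted p ran from 0.00548 to 0.138.

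The 5 HD-ZIP II genes together summed to 101 ± 8.00 CPM in mutant red light and 146 ± 16.2 CPM in mutant dark libraries, and to 100.4 ± 2.82 CPM in wild type red light and 155 ± 15.0 CPM in wild type dark libraries (SD, n = 3 each). ATHB2 supplied 6.23% of these tags in mutant red light and 21.1% in mutant dark libraries, against 5.87% in wild type red light and 17.4% in wild type dark libraries. In both genotypes the summed level was lower in every red light library than in any dark library, and the share of ATHB2 was lower too.

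ST2A, an enzyme gene whose product sulfates hydroxyjasmonates, derivatives of the wound hormone jasmonate, is a single-exon gene on chromosome 5 from 2174668 to 2176446. It stood at 13.1, 12.7 and 17.5 CPM in mutant red light libraries, against 43.4, 38.4 and 49.6 CPM in mutant dark libraries. Levels of 18.4, 15.7 and 19.8 CPM in wild type red light libraries compared with 49.7, 36.4 and 37.6 CPM in wild type dark libraries. Red light libraries lay below dark libraries throughout, and the fall was 3.04-fold in the mutant (log2 −1.60 ± 0.16 SE, edgeR adjusted p = 4.71e-08) and 2.31-fold in the wild type (log2 −1.21 ± 0.15 SE, edgeR adjusted p = 2.34e-06). The last 500 bases of its transcript are 80.9% identical over 492 bases to AT5G07000, a neighbouring relative, and the counting of reads with several matches is not described in the labels, so the split of reads between them is uncertain.

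**Figure D4:**
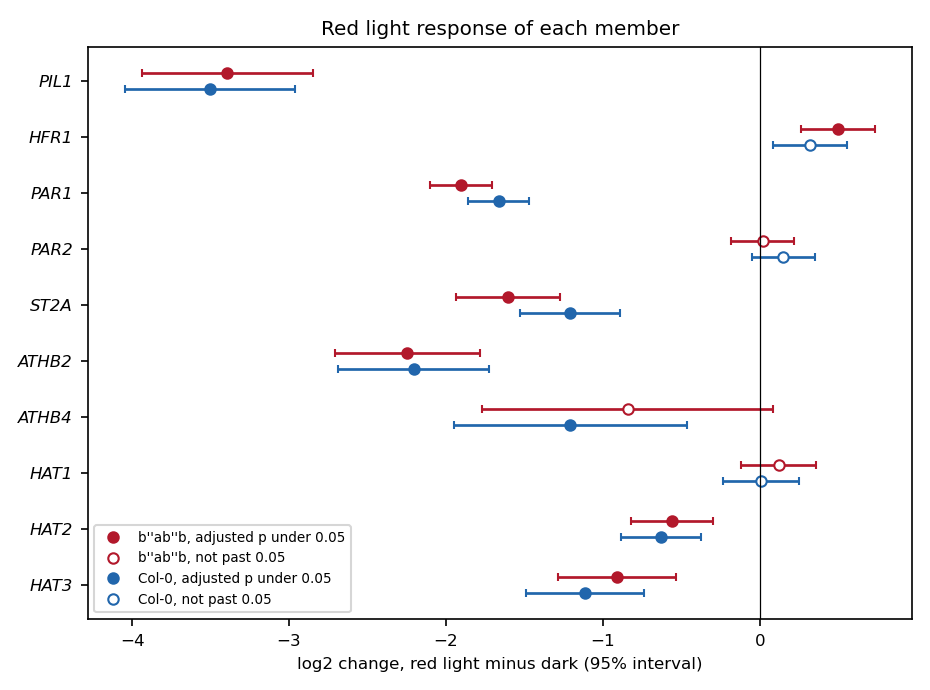
log2 change in red light relative to dark for each gene in the double mutant (upper symbol of each pair) and in Col-0 (lower symbol), with 95% intervals. Filled symbols passed adjusted p under 0.05: PIL1, PAR1, ST2A, ATHB2, HAT2 and HAT3 lie left of 0 in both genotypes, ATHB4 is filled for Col-0 alone and HFR1, right of 0, for the mutant alone.

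The second question was whether the mutant differs from the wild type at these genes. In the dark 0 of the 10 genes were called (0.0541% of all tested genes were), with 1 at an unadjusted p under 0.05 (4.02% of all tested genes). In red light 0 were called as well (0.0811% of all tested genes), again with 1 at an unadjusted p under 0.05 (4.59% of all tested genes). For the interaction, the mutant response minus the wild type response, 0 of the 10 genes were called (0% of all tested genes) and 0 had an unadjusted p under 0.05 (3.32% of all tested genes). These counts come from edgeR, and DESeq2 and limma-voom also called 0 of the 10 in each of these comparisons.

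The gene with an unadjusted p under 0.05 in the dark was ATHB4, with every mutant library below every wild type library. The difference was log2 −1.13 ± 0.35 SE (95% interval −1.86 to −0.39, edgeR adjusted p = 0.893, and 0.365 to 1 over the alternatives). Among all tested genes 4.51% had mutant dark libraries entirely below wild type ones. In red light it was log2 −0.76 ± 0.45 SE (edgeR adjusted p = 0.999). Averaged over both light conditions, a comparison added after its values were seen, it was log2 −0.94 ± 0.29 SE (edgeR adjusted p = 0.527). For that average 0 of the 10 genes were called and 0.119% of all tested genes were, with 5.46% of tested genes at an unadjusted p under 0.05. HAT3, its closest relative here (76.4% identical coding bases), stood at log2 0.11 in red light and −0.09 in the dark, with neither past the threshold. The other 9 genes differed in the dark by log2 −0.20 to 0.19, with 95% intervals inside −0.45 to 0.56.

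In red light the gene with the lowest p was PAR1, at 28.0 ± 1.44 CPM in the mutant and 33.4 ± 3.08 CPM in the wild type (SD, n = 3 each). All 3 mutant libraries lay below all 3 wild type libraries, as they did for 5.42% of tested genes, and the difference was log2 −0.26 ± 0.11 SE (edgeR adjusted p = 0.999). HFR1 libraries of the mutant all lay above those of the wild type (log2 0.15, edgeR adjusted p = 0.999), as for 5.69% of tested genes. ST2A stood at log2 −0.32 (edgeR adjusted p = 0.999). The interaction ran from log2 −0.39 for ST2A to 0.37 for ATHB4, and none of the 10 genes passed (edgeR adjusted p at least 0.999962). At 3 libraries per group, intervals for PIL1 in red light, which rests on few counts, reached from log2 −0.82 to 0.88, so genotype differences of that size were not detectable for it. The widest 95% intervals of the interaction were log2 −0.87 to 1.60 for ATHB4, −0.82 to 1.04 for PIL1 and −0.77 to 0.69 for ATHB2. Differences of that size between the responses of these genes were not detectable either. Calls used adjusted p, a stricter rule than these intervals, so differences in the other members could be missed as well.

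**Figure D5:**
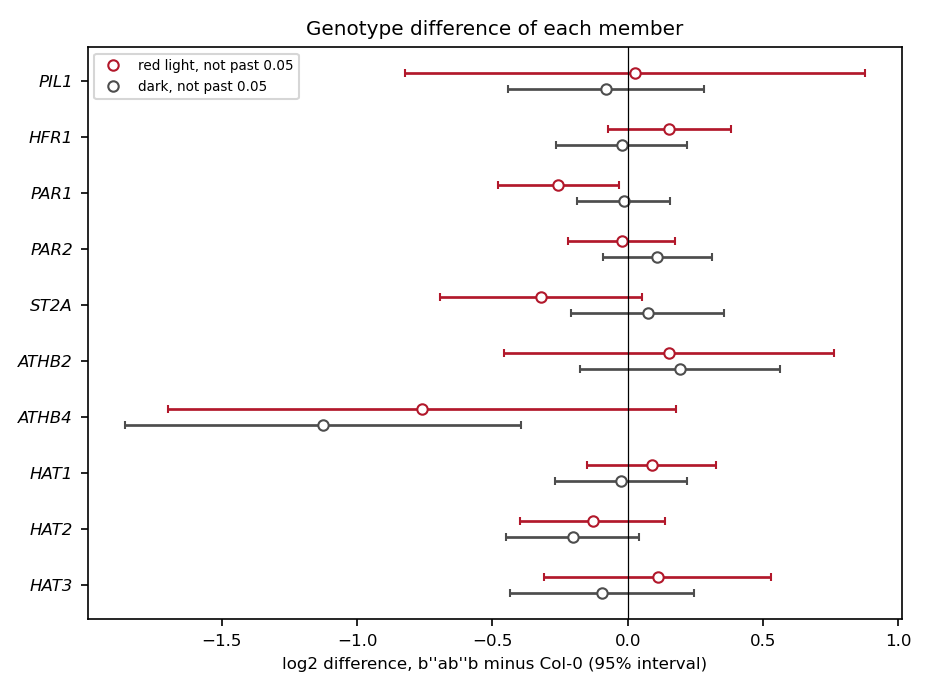
log2 difference of the double mutant minus Col-0 for each gene in red light (upper symbol) and in the dark (lower symbol), with 95% intervals; open symbols did not pass adjusted p under 0.05. All symbols are open, and the intervals of ATHB4 in the dark (−1.86 to −0.39) and of PAR1 in red light lie wholly below 0.

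Genes of the same pathway give the setting. Of 7 PIF genes, 4 rose and 1 fell in each genotype. Over all tested genes 10.7% rose and 5.27% fell in the mutant, and 10.6% rose and 4.68% fell in the wild type. In the mutant PIF4 rose by log2 1.59, PIF5 by 2.02, PIF7 by 1.79 and PIF8 by 1.77, and PIF3 fell by 0.55. In the wild type PIF4 rose by log2 1.98, PIF5 by 1.89, PIF7 by 1.41 and PIF8 by 1.46, and PIF3 fell by 0.57. The PIF transcripts that changed thus mostly went opposite to PIL1, PAR1 and ATHB2, while PIF1 (log2 −0.10 in the mutant and −0.11 in the wild type) and PIF6 (−0.35 and −0.41) did not pass. The PIF7 call in the wild type was lost without wild type red light replicate 1 (edgeR adjusted p = 0.0859) or wild type dark replicate 1 (edgeR adjusted p = 0.0538), within a range of 6.23e-04 to 0.0859 over 19 alternatives.

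Of 13 tested genes among 15 listed for other HLH and bHLH partners, 3 rose and 5 fell in each genotype. The shares over all tested genes were 10.7% risen and 5.27% fallen in the mutant, and 10.6% and 4.68% in the wild type. HEC1 and HEC2, bHLH factors of carpel and stem cell development, fell by log2 1.39 and 1.24 in the mutant and by 1.53 and 1.20 in the wild type. AIF1, an atypical bHLH that restrains cell elongation, rose by 2.28 in the mutant and 2.41 in the wild type. BIM1, a brassinosteroid-signalling bHLH, rose by 0.56 in the mutant and 0.37 in the wild type, and BEE3, a brassinosteroid-induced bHLH, fell by 2.25 in the mutant and 2.16 in the wild type. Of 13 tested genes among 16 other PIF-activated genes, 9 fell and 1 rose in the mutant, and 7 fell and 1 rose in the wild type, beside the same shares. The auxin-response repressor gene IAA29 fell by log2 1.92 in the mutant and 1.75 in the wild type, and the apical hook gene HLS1 by 2.05 in the mutant and 2.78 in the wild type. The wall enzyme gene XTH15 fell by 1.33 in the mutant and 1.27 in the wild type, whereas the B-box gene BBX24 rose by 2.27 in the mutant and 2.40 in the wild type.

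Relatives outside the 10 genes behaved differently from ATHB2. HAT9, another HD-ZIP II gene, stood at 5.95, 10.5 and 6.24 CPM in mutant red light libraries, against 6.78, 5.84 and 6.12 CPM in mutant dark libraries. Wild type values were 9.80, 11.1 and 9.22 CPM in red light, against 2.89, 4.41 and 4.07 CPM in the dark. The wild type groups were far apart and the mutant groups overlapped. HAT9 rose in the wild type (log2 1.43 ± 0.27 SE, edgeR adjusted p = 3.43e-04) and did not pass in the mutant (log2 0.27 ± 0.25 SE, edgeR adjusted p = 0.560). The difference between these responses was log2 −1.16 ± 0.37 SE and did not pass (edgeR adjusted p = 0.999962). Its unadjusted edgeR p was under 0.05, as for 3.32% of tested genes. In the dark HAT9 stood higher in the mutant than in the wild type by log2 0.74, which did not pass. The unadjusted edgeR p of that dark difference was also under 0.05, as for 4.02% of tested genes. HAT14 (log2 −0.26 in the mutant and 0.51 in the wild type) and HAT22 (−0.24 and 0.05) did not pass, and 2 further genes of this class had too few counts to test.

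The class III HD-ZIP genes encode polarity and vascular factors that are known to switch on HD-ZIP II genes, and 0 of 5 were called in either genotype by edgeR (0 in the mutant and 2 in the wild type at an unadjusted p under 0.05, beside 26.2% and 25.8% of all tested genes), nor by DESeq2 or limma-voom. In the mutant their log2 changes ran from −0.10 for ATHB15 to 0.03 for PHB, with REV at −0.06, PHV at −0.01 and ATHB8 at −0.07. In the wild type they ran from −0.37 for ATHB8 to 0.07 for PHB, with REV at −0.34, PHV at −0.20 and ATHB15 at −0.28. No gene of any of these lists was called between genotypes or for the interaction.

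Markers of tissues that could alter the makeup of the seedlings were summed for the same libraries. The 5 vascular markers, among them ATHB8 and ATHB15 named above, came to 89.1 to 96.4 CPM in mutant red light, 83.9 to 91.0 in mutant dark, 76.9 to 86.1 in wild type red light and 82.4 to 91.4 in wild type dark libraries. In red light 1 of 5, APL, rose in each genotype, beside 10.7% of all tested genes in the mutant and 10.6% in the wild type. APL averaged 20.3 against 14.3 CPM in the mutant and 21.6 against 12.4 CPM in the wild type. The median log2 change of the 5 was −0.07 in the mutant and −0.28 in the wild type. The 4 endodermis markers came to 320 to 323, 260 to 298, 300.4 to 326 and 265 to 288 CPM in the same groups, so that the sum was higher in red light. Of these 4, SCR rose in each genotype and 3 did not pass, among them MYB36 at log2 −0.17 in the mutant and −0.38 in the wild type. The 5 root hair markers came to 49.5 to 67.0, 49.8 to 80.7, 43.4 to 44.7 and 41.4 to 72.6 CPM, the 4 markers of dividing cells to 39.9 to 44.4, 37.6 to 41.5, 32.4 to 40.9 and 34.4 to 45.1 CPM, and the 7 seed stage markers (4 tested) to 5.04 to 17.4, 4.04 to 52.6, 9.89 to 20.9 and 6.62 to 32.9 CPM, with no call in red light. No marker was at 0 in all libraries of a group. The seed stage sums hide single genes that differed in the dark. EM1 stood at 0 to 0.225 CPM in mutant and 1.57 to 18.9 CPM in wild type libraries. CRC stood at 0.197 to 15.9 CPM in mutant and 0.552 to 0.939 CPM in wild type libraries. No tested seed stage gene was called between genotypes in the dark. The part of these differences in the results was not tested.

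The genes with the most similar course over the 12 libraries were found among genes with a mean of at least 10 CPM, by the Pearson r of log2 CPM. The libraries share the light contrast, so r is a measure of likeness and no test. PAR1 was closest to the zinc finger gene AT5G44260 (r = 0.997) and to AT5G60680 (r = 0.997), PIL1 to the trihelix gene AT5G28300 (r = 0.990), ATHB2 to the beta-xylosidase gene BXL2 (r = 0.979) and ST2A to AT1G60060 (r = 0.978). HAT3 was closest to AT1G30690 (r = 0.972), HAT2 to the small peptide gene RTFL8 (r = 0.965) and HFR1 to AT2G36950 (r = 0.963). For the genes that changed little or had few reads the best r was lower: 0.900 for PAR2 with AT5G52010, 0.900 for ATHB4 with AT4G32900 and 0.890 for HAT1 with AT4G12770.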

How the data were processed

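The deposited table gives raw counts of reads for each gene, whole numbers that the authors made from 3′ tag libraries of total RNA. FastQC, HISAT2, HTSeq, edgeR and the build TAIR10 are named in the submitters' processing notes, without versions. No source used here gives the strand setting or the handling of reads with several matches. Columns were matched to samples by title, and the summary lines were left out.

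From the counts, edgeR 4.0.16 in R 4.3.3 was run with TMM factors, filterByExpr (minimum count 10), a single quasi-likelihood fit of 4 groups over 12 libraries and Benjamini-Hochberg adjustment over 18487 genes (threshold 0.05). The SE is the log2 change divided by the square root of F, and intervals are 95%. The contrasts were red light minus dark in each genotype, mutant minus wild type in each light condition, and the interaction. The code was tested on simulated data. No replicate pair agreed within sampling noise (chi-square over its degrees of freedom at least 1.54).

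All 10 genes are named, as is every tested gene of the PIF, other HD-ZIP II and HD-ZIP III lists, up to 4 called genes with the smallest p from each other list, and by rule the 2 genes most like each of the 10 (the second is given for PAR1 only). The genes and lists were chosen with earlier results of these data known. Alternatives were DESeq2 1.42.0, limma-voom (limma 3.58.1), RLE factors, no filter, a mean of at least 5 CPM, only the groups compared, a replicate block, each library left out, and both dark libraries that stand apart left out. Sequences came from the RefSeq TAIR10.1 genome and annotation, to which all 83 listed loci matched, with blastn 2.17.0 and biopython 1.88 for identities. Tables and figures used python 3.11.15, pandas 2.3.3, numpy 2.4.6 and matplotlib 3.10.9.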

Additional observations from a re-analysis of the deposited data

How the results depend on the processing

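Over 20 alternatives the count of the 10 genes called in red light was 7 in every one for the mutant and 6 to 8 for the wild type, and counts between genotypes and for the interaction stayed at 0. The wild type count moved with ATHB4 and HFR1 alone, as given above, and ATHB4 was not tested at a mean of at least 5 CPM. HAT22 fell in the mutant without both dark libraries that stand apart (log2 −0.34, edgeR adjusted p = 0.0362, and 0.0362 to 0.601 over its alternatives). RLE factors moved no median of all genes by more than 0.008. Replicate numbers did not pair the samples (correlations of same-numbered deviations −0.166 to 0.1498, and 5 of 24 comparisons best with their own number). With the replicate block the 10 genes gave 7 calls in the mutant and 7 in the wild type, and 2780 and 2651 of all genes were called.

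Counts over all genes moved by more than 1.5 times as follows: in the dark between genotypes from 10 to 69 with no filter and 24 without wild type dark replicate 2, and in red light from 15 to 68 with no filter, 43 with only the groups compared, 46 without both dark libraries that stand apart and 9 without mutant red light replicate 1 or 3 or wild type red light replicate 3. The interaction went from 0 to 28 with no filter, 1 with DESeq2, 3 without wild type dark replicate 1 and 2 without both dark libraries. The mean genotype difference went from 22 to 116 with no filter, 14 with at least 5 CPM, the replicate block or without wild type red light replicate 3, and 36 without wild type dark replicate 2 or both dark libraries. The cause was not tested.

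Of 98 log2 changes under 1935 alternatives, 50 alternatives in 23 results reversed a sign, none of them called. With 1 library left out at a time these ran, for red light in the wild type, from −0.0491 to 0.0709 for HAT1 and −0.0262 to 0.138 for HAT22, and in the mutant from −0.0214 to 0.0772 for PAR2, −0.185 to 0.106 for ATHB8, −0.0300 to 0.424 for HAT9, −0.655 to 0.171 for HAT14, −0.170 to 0.126 for REV, −0.161 to 0.142 for PHB and −0.0866 to 0.0740 for PHV. Between genotypes in the dark they ran from −0.0967 to 0.0827 for HFR1, −0.0499 to 0.0264 for PAR1, −0.140 to 0.0464 for HAT1, −0.219 to 0.0543 for PIL1, −0.198 to 0.0118 for HAT3 and −0.0385 to 0.250 for ST2A. In red light they ran from −0.282 to 0.219 for PIL1, −0.0988 to 0.0433 for PAR2, −0.171 to 0.476 for ATHB2 and −0.000802 to 0.254 for HAT3. For the interaction they ran from −0.204 to 0.297 for PIL1, −0.368 to 0.280 for ATHB2, −0.120 to 0.647 for ATHB4 and −0.0238 to 0.194 for HAT2. Without both dark libraries that stand apart, the reversed values were −0.0164 for HAT1 in wild type red light, −0.0207 for PAR2 and 0.106 for ATHB8 in mutant red light, and 0.0366 for HFR1, 0.0324 for PAR1 and 0.0110 for HAT1 in the dark between genotypes. Depth limits ATHB4 and the red light values of PIL1, at 3 to 31 and 4 to 10 counts per library.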
